A study of Mus musculus with 2 samples.

Results

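Glypicans and syndecans are the main cell surface proteoglycans that carry heparan sulfate. The mouse genes of both families, Gpc1 to Gpc6 and Sdc1 to Sdc4, were followed in ureter explants in which canonical WNT signaling had been activated. Earlier results of these data were known when the families were picked. The 10 genes were chosen by family membership, 6 glypicans and 4 syndecans, out of 29875 genes by name on the array. They are read by 13 of its 39429 probes, and all 13 probes were bright enough to be tested. Wildtype NMRI ureters of stage E12.5 were kept as explants over 18 h in medium with BIO at 10 µM, a GSK3 inhibitor of the indirubin class that switches on canonical WNT signaling. Control explants received the solvent, DMSO at 2 parts in 1000. The sex was not determined, each RNA came from a pool of ureters, and BIO was in the medium of the whole explant, so the values average over epithelium, mesenchyme and whatever vessels and nerves came with the tissue. On each of the 2 arrays a control pool and a BIO pool were hybridized together, and the dyes were exchanged between the arrays. BIO was red in replicate 1 and green in replicate 2.

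Glypicans are tethered to the outer membrane leaflet by a GPI anchor, whereas syndecans span the membrane with a short cytoplasmic tail that meets the cytoskeleton and PDZ domain proteins. Their heparan sulfate chains bind WNT, FGF, hedgehog and BMP ligands, and so shape how far a ligand travels and how well it engages its receptor. Sulfation by enzymes of the Golgi and later trimming outside the cell set which ligands a chain can bind. In the urinary tract these chains are known as co-factors of branching and of signaling between epithelium and mesenchyme.

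To show where the members that moved with BIO lie and what precedes them, the promoters of Sdc1, Sdc3, Sdc4, Gpc3 and Gpc4 are given first. Each is the stretch of 250 bases before the annotated start from RefSeq (GRCm38.p6), written 5′ to 3′ in the direction of the gene. Capitals mark GC boxes (GGGCGG on either strand), and in Sdc3 also a match to TNGCGTG, the core bound by AHR, a receptor for which indirubins are ligands. Sdc1 is chr12:8771146-8771395 on the plus strand, Sdc3 is chr4:130792287-130792536 on the plus strand, Sdc4 is chr2:164443189-164443438 on the minus strand, Gpc3 is chrX:52613975-52614224 on the minus strand and Gpc4 is chrX:52164924-52165173 on the minus strand.
Sdc1: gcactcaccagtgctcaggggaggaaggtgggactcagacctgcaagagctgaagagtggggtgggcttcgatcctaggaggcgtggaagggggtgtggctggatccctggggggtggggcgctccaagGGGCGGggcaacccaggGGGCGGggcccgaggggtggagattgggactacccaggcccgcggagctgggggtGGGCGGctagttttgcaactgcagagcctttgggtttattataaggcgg
Sdc3: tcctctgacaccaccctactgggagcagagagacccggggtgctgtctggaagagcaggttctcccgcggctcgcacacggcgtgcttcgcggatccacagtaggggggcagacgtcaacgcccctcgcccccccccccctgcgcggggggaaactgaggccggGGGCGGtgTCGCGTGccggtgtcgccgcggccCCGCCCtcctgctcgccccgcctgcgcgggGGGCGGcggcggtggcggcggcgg
Sdc4: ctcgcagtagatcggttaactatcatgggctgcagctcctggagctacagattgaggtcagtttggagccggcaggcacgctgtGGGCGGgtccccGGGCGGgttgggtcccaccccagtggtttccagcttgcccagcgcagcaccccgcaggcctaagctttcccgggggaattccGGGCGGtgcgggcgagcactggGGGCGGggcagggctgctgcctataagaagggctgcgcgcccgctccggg
Gpc3: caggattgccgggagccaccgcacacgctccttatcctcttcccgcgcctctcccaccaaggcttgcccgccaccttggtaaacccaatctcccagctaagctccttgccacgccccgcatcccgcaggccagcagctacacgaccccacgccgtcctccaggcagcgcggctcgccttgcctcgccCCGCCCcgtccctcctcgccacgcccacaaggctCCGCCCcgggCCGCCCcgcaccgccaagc
Gpc4: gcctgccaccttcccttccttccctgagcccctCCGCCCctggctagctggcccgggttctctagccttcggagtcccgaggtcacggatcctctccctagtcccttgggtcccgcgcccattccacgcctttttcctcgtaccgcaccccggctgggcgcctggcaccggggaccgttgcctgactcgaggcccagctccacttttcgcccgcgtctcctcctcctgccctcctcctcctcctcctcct

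The promoter table matched 7 of the 10 genes, namely Gpc2, Gpc3, Gpc4, Gpc5, Sdc1, Sdc3 and Sdc4. Promoters of Gpc1, Gpc6 and Sdc2 were not used here. All 7 windows held at least 1 GC box, a motif found in 32.75% of the 32841 promoter windows of that length. Their content of G and C ran from 51.2% in Gpc5 to 76.4% in Sdc3, beside a median of 52.4% over all windows. None of the 7 held a TCF/LEF core (CTTTGAA on either strand, or the same letters with T in place of one or both final A), which occurs in 14.84% of all windows. The AHR core was present in 1 of the 7, as TCGCGTG in Sdc3, and in 4.10% of all windows. The marked motifs do not overlap each other. A match or its absence describes these letters only. Gpc4 and Gpc3 lie next to each other on chromosome X, and Gpc5 and Gpc6 next to each other on chromosome 14, in each case with 0 other coding genes between them.

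The comparison of BIO with control asked which of the 10 genes respond to BIO in explants of the early ureter. With BIO as the only agent on these arrays, a response through WNT signaling cannot be told apart from its other effects. By limma over both arrays (adjusted p below 0.05), 2 of the 10 genes were called as risen and 5 as fallen, and 3 were not called. On simulated ratios of 2 arrays, this test let through more false calls than its threshold states. The simulation held a far smaller share of changed probes than was called here, so the share of false calls on these arrays was not tested. The risers were the syndecan genes Sdc2 and Sdc1. The genes that fell were the glypican genes Gpc3, Gpc4 and Gpc6 and the syndecan genes Sdc3 and Sdc4. For comparison, 23.9% of all 21574 genes tested were called in either direction, 9.13% as risen and 14.8% as fallen. The median log2 ratio over the 10 genes was -0.22, with -0.27 in both replicates, beside -0.01 over all genes tested. A fold-change rule, at least 2-fold the same way in each replicate with the brighter channel at 100 or more, was met by 0 of the 10 genes, and 1.04% of all genes met it as higher and 2.04% as lower.

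**Figure D1:**
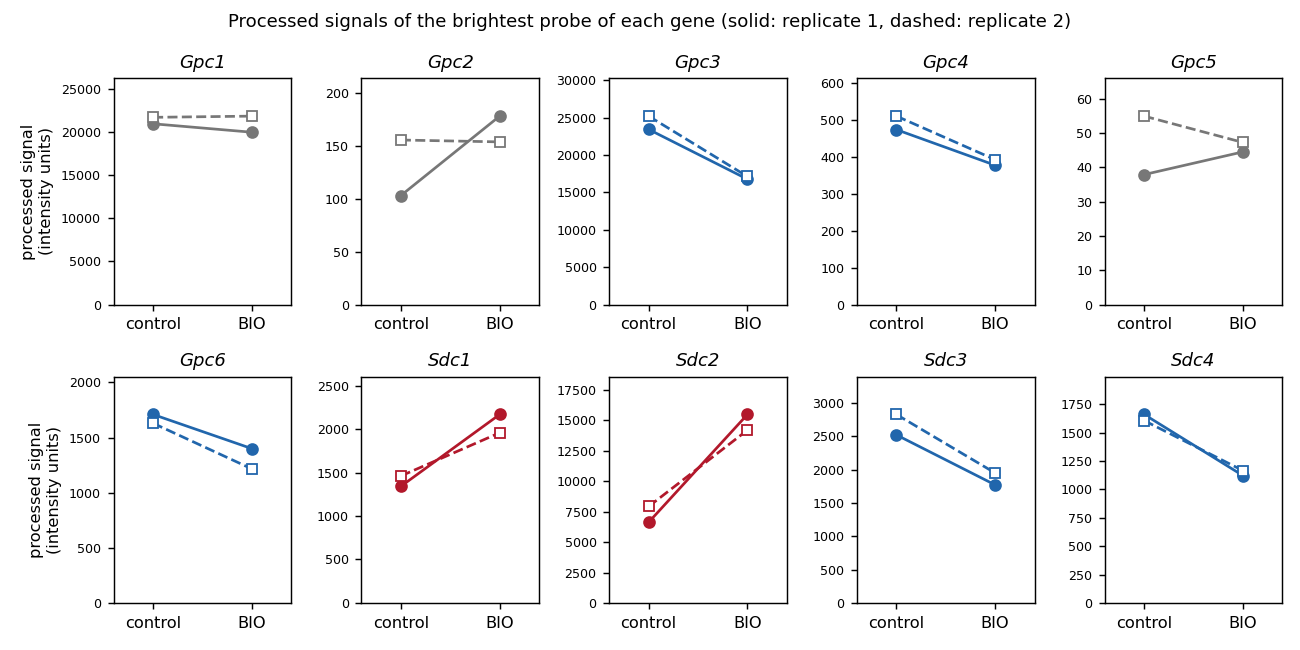
Processed signals in intensity units (vertical axes from 0, a scale of its own per gene) of the brightest probe of each gene in control and BIO. Filled circles and solid lines are replicate 1, open squares and dashed lines are replicate 2, and red, blue and gray mark genes called as risen, fallen or not called. BIO lies above control on both arrays for Sdc1 and Sdc2, below control for Gpc3, Gpc4, Gpc6, Sdc3 and Sdc4, and the groups overlap for Gpc1, Gpc2 and Gpc5.

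Processed signals, the scanner software's background-subtracted and dye-normalized intensities, separated the groups for 7 of the 10 genes. In 2 of them both BIO signals lay above both control signals and in 5 both lay below, while in 3 the groups overlapped. Over all genes tested, 29.7% had both BIO signals above and 25.8% had both below. The log2 ratios of 3 members, Gpc1, Gpc2 and Gpc5, had opposite signs on the arrays, as did 27.1% of all genes. Counted by probe, 7 of the 13 were called, beside 23.2% of all 28824 probes tested. A probe's signal can be set against itself in the other channel only, since probes differ in how strongly they bind.

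Among the syndecans, Sdc2 had the largest response of either family. Sdc2 is the syndecan of fibroblasts and other mesenchymal cells. Its probe (NM_008304) lies at chr15:32964204-32964263 on the mm9 build. In replicate 1 it read 6633 in control against 15495 with BIO, and in replicate 2 it read 7931 against 14207. Both BIO signals were far above both control signals. These are log2 ratios of 1.15 and 0.82, a mean rise of 0.98 ± 0.12 (SE, n = 2) or 1.98-fold (limma adjusted p 0.000947). Of all genes tested, 3.86% had a larger size of change in either direction. Sdc2 passed the fold-change rule when the minimum was lowered to 1.5-fold and in replicate 1 alone.

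Sdc1 rose as well. It is the main syndecan of epithelia, and its ectodomain is shed from the cell surface by metalloproteases. The probe (NM_011519, chr12:8799383-8799442, mm9) gave 1342 and 1461 in the control channels and 2168 and 1957 in the BIO channels, with no overlap between the groups. The log2 ratio was 0.65 and 0.40, the mean 0.52 ± 0.12 (SE, n = 2) or 1.44-fold, and the adjusted p 0.0144 (limma). Over the alternatives this p ran from 0.00979 to 0.229, and the call was lost with median centering in place of loess (adjusted p 0.186) and with the deposited score table (0.229).

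The other pair of syndecans went the opposite way. Sdc3, the syndecan known from the nervous system and from developing limb and muscle, fell from 2524 in control to 1773 with BIO in replicate 1, and from 2831 to 1951 in replicate 2 (NM_011520, chr4:130382015-130382074, mm9). Its log2 ratio was -0.54 on both arrays, with an SE of 0.11 and an adjusted p of 0.00896 (limma). Sdc4, which sits at focal adhesions and cooperates with integrins, fell from 1659 to 1121 and from 1605 to 1165 (NM_011521, chr2:164251211-164251270, mm9). Its log2 ratios were -0.60 and -0.48, on average -0.54 ± 0.11 (SE, n = 2; limma adjusted p 0.00973). In both genes the lowest control signal was above the highest BIO signal, and both genes were 1.45-fold lower with BIO. The calls of Sdc2, Sdc3 and Sdc4 were lost with the score table alone (adjusted p 0.160, 0.101 and 0.101). Over all alternatives the p ran from 3.87e-05 to 0.160 for Sdc2, from 0.00576 to 0.101 for Sdc3 and from 0.00631 to 0.101 for Sdc4. With 2 risen and 2 fallen, the syndecans had a median log2 ratio of -0.01.

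**Figure D2:**
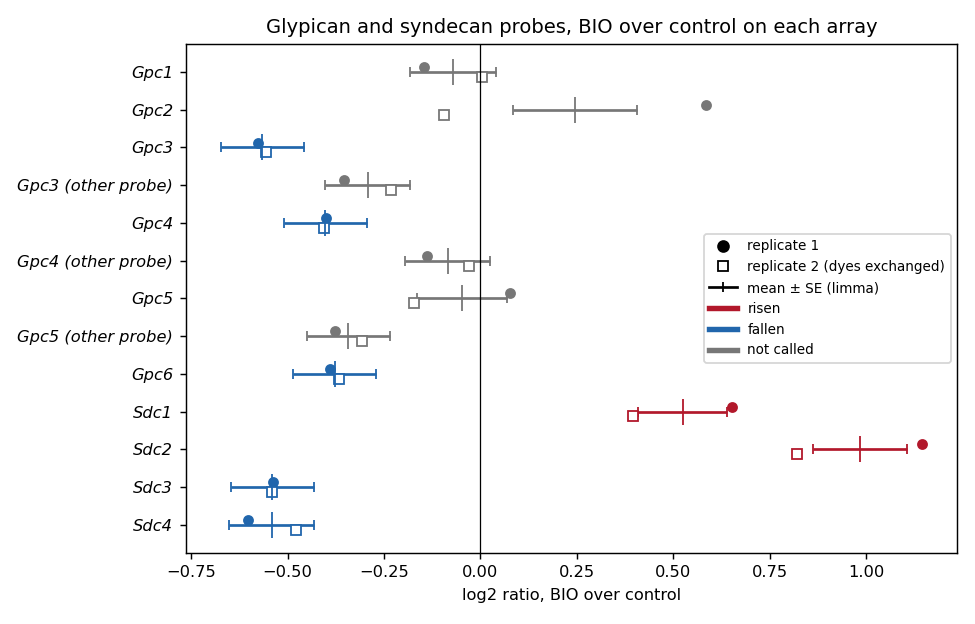
Log2 ratio of BIO over control (horizontal axis) for all 13 probes of the glypican and syndecan genes. Filled circles are replicate 1, open squares are replicate 2 with exchanged dyes, and bars give the mean ± SE from limma, with red for risen, blue for fallen and gray for not called. The 4 syndecans lie away from 0 in both directions, from -0.54 to 0.98, and the 3 dimmer second probes of Gpc3, Gpc4 and Gpc5 lie below 0 and were not called.

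Of the 6 glypicans, 0 rose, 3 fell and 3 were not called, with a median log2 ratio of -0.22. Gpc3 fell most. This glypican restrains growth and hedgehog signaling, and its loss causes an overgrowth syndrome with enlarged and dysplastic kidneys. The brightest probe (NM_016697, chrX:49625740-49625799, mm9) gave 23426 and 25200 in the control channels and 16765 and 17129 in the BIO channels, so that the replicates lay close to each other and the groups well apart. The log2 ratio was -0.58 and -0.56, the mean -0.57 ± 0.11 (SE, n = 2) or 1.48-fold lower, and the adjusted p 0.00726 (limma). A dimmer second probe, designed on a cDNA (AK077942, chrX:49740892-49740951), had ratios of -0.35 and -0.23 at signals between 107 and 136 and was not called (adjusted p 0.0931). Over the alternatives the p of the gene ran from 0.00504 to 0.300. The call was lost with median centering, where the ratio was -0.38 (adjusted p 0.300), and with the score table (0.101).

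Gpc4, the neighbor of Gpc3 on chromosome X, encodes a glypican that modulates WNT and FGF signals. Its signal went from 473 to 377 in replicate 1 and from 510 to 392 in replicate 2 (NM_008150, chrX:49406560-49406619, mm9). Control was above BIO on both arrays, with a log2 ratio of -0.40 each time (SE 0.11, adjusted p 0.0300, limma). The other Gpc4 probe (XM_011250978, chrX:49406100-49406159) was dim, with signals from 59.4 to 61.5, and its ratios were -0.14 and -0.03 (adjusted p 0.634). The mean of both probes was -0.24 and was not called (adjusted p 0.117). The call was also lost with the processed signals (0.0963) and with median centering (0.0864), and over all alternatives the p ran from 0.0256 to 0.117.

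Gpc6, the closest relative of Gpc4 and mutated in a human skeletal dysplasia with short limbs, went from 1709 in control to 1399 with BIO in replicate 1 and from 1629 to 1215 in replicate 2 (NM_001079844, chr14:118375311-118375370, mm9). The groups did not overlap. The ratios were -0.39 and -0.37, the mean -0.38 ± 0.11 (SE, n = 2) or 1.30-fold lower, and the adjusted p 0.0380 (limma). This was the call nearest to the threshold, and it was lost with a smaller background offset of 16 (0.0595), with the processed signals (0.0944) and with median centering (0.166), in a range from 0.0270 to 0.166. The SE of each called gene rests mainly on the spread borrowed from all probes, a prior SD of 0.163. This prior has 7.14 degrees of freedom, more than the 2 arrays give. For Gpc3, Gpc4, Gpc6 and Sdc3 the arrays lay so close together that the SE of 0.11 rests almost wholly on it.

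The remaining glypicans were not called. Gpc1, a widely expressed glypican and FGF co-receptor, had signals of 20923 and 21671 in control and 19947 and 21811 with BIO (NM_016696, chr1:94756711-94756770, mm9). The groups overlapped, and the ratios were -0.15 and 0.00 (adjusted p 0.699, limma). Gpc2, known from developing neurons, was dim. It had 103 and 155 in control and 178 and 154 with BIO (NM_172412, chr5:138715328-138715387, mm9). Replicate 1 gave a log2 ratio of 0.59 and replicate 2 one of -0.09, so that its mean of 0.25 ± 0.16 (SE, n = 2) rests on 1 array (adjusted p 0.318). Gpc5, like its relative Gpc3 a hedgehog binding glypican, was dimmer still, with 37.9 and 55.0 in control and 44.5 and 47.3 with BIO at its brightest probe (NM_175500, chr14:116923600-116923659, mm9; ratios 0.08 and -0.17, adjusted p 0.815). A further Gpc5 probe, assigned to the same transcript, lies nearer its 5′ end (chr14:115768958-115769017, mm9). It had ratios of -0.38 and -0.31 at signals of 30.5 and 35.8 in control and 19.5 and 23.8 with BIO. It missed the threshold (limma adjusted p 0.0541). At these signals the offset of 50 in the background correction pulls ratios toward 0. In which exon each probe lies was not determined here.

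**Figure D3:**
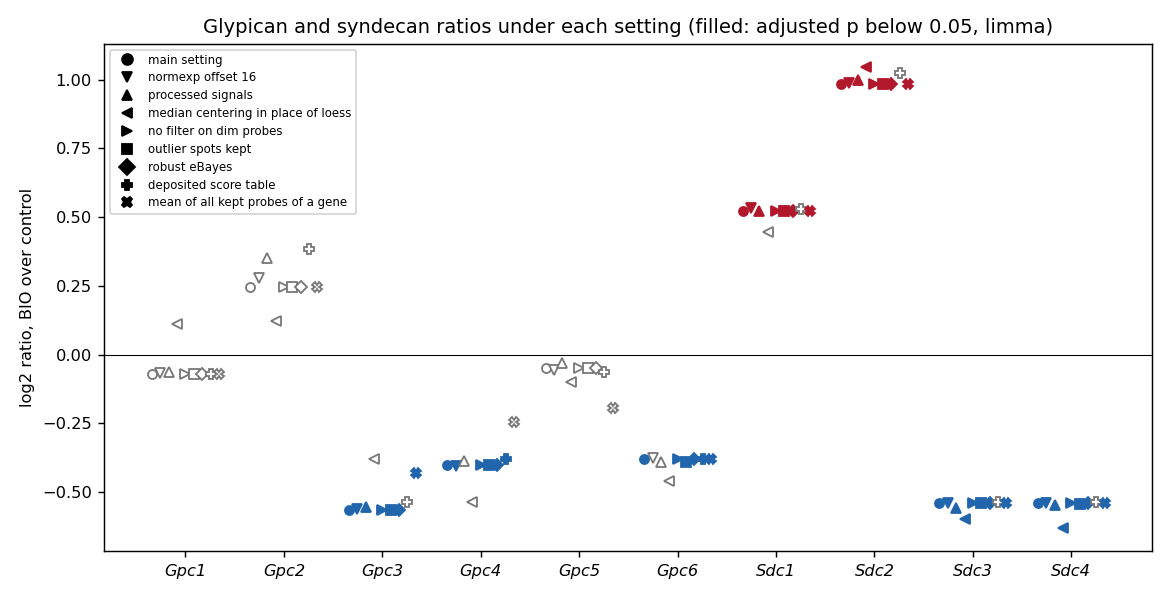
Log2 ratio of BIO over control (vertical axis) of each gene under the main setting and 8 alternatives, with 1 marker shape per setting. Filled markers have an adjusted p below 0.05 (limma), red for higher and blue for lower with BIO, and open gray markers do not. The 7 called genes kept their side of 0 under each setting shown, and Gpc1 moved from -0.07 to 0.11 with median centering.

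Since a proteoglycan works through its chains, genes that make, edit and read heparan sulfate were taken from 6 lists. Of 46 genes on these lists, 43 were tested, 2 rose, 14 fell and 27 were not called, beside 9.13% risen and 14.8% fallen among all genes tested. The median log2 ratio over these lists was -0.17. The lists are short, and their counts below are to be read against the same shares. The enzymes that build the chain were not among those called. Of 6 genes for the linker between protein and chain, 0 were called, with log2 ratios from -0.33 to 0.18. Of 5 genes for chain polymerization, 0 were called, with ratios from -0.17 to 0.23. The lowest ratio was that of Fam20b, at -0.33 (limma adjusted p 0.0730). Xylt1 and Extl1 had processed signals between 15 and 16.8, at or near the floor of 15, so a fall in them could hardly be seen.

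Chain modification gave calls in both directions. Of 16 genes, 13 were tested, 1 rose, 5 fell and 7 were not called. Ndst3, one of the enzymes that replace acetyl by sulfate on glucosamine, rose from 163 to 260 and from 217 to 314 (log2 ratio 0.46, adjusted p 0.0182, limma). The largest falls were those of Hs3st5 and Hs3st4, sulfotransferases that place a late and rare sulfate on the chain. Hs3st5 went from 148 to 36.2 and from 229 to 116, with a mean log2 ratio of -1.23 (adjusted p 0.00132). Hs3st4 went from 64.4 to 17.4 and from 69.3 to 32.8, with a mean of -0.91 (adjusted p 0.00166). Hs6st1, which sulfates another position of glucosamine, was at -0.44 (adjusted p 0.0322). With BIO, Hs3st3a1 did not rise well above background on either array, and it was 1.35-fold lower by its fitted ratio (adjusted p 0.0232). The bound set for such probes equals this fitted ratio, since the gene's own BIO signal lay above the dimmest signal counted as above background. It is thus an estimate and not a firm minimum. The signals of Hs3st3a1 were 25.7 and 23.5 in control and 15.4 and 15 with BIO, close to the floor of 15. Its log2 ratio was -0.44 in the main setting and -0.64 with an offset of 16. The fifth gene, Hs3st1, was at -0.43. The calls of Hs6st1 and Hs3st1 were lost with an offset of 16, with the processed signals and with median centering, and those of Ndst3 and Hs3st3a1 with median centering.

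**Figure D4:**
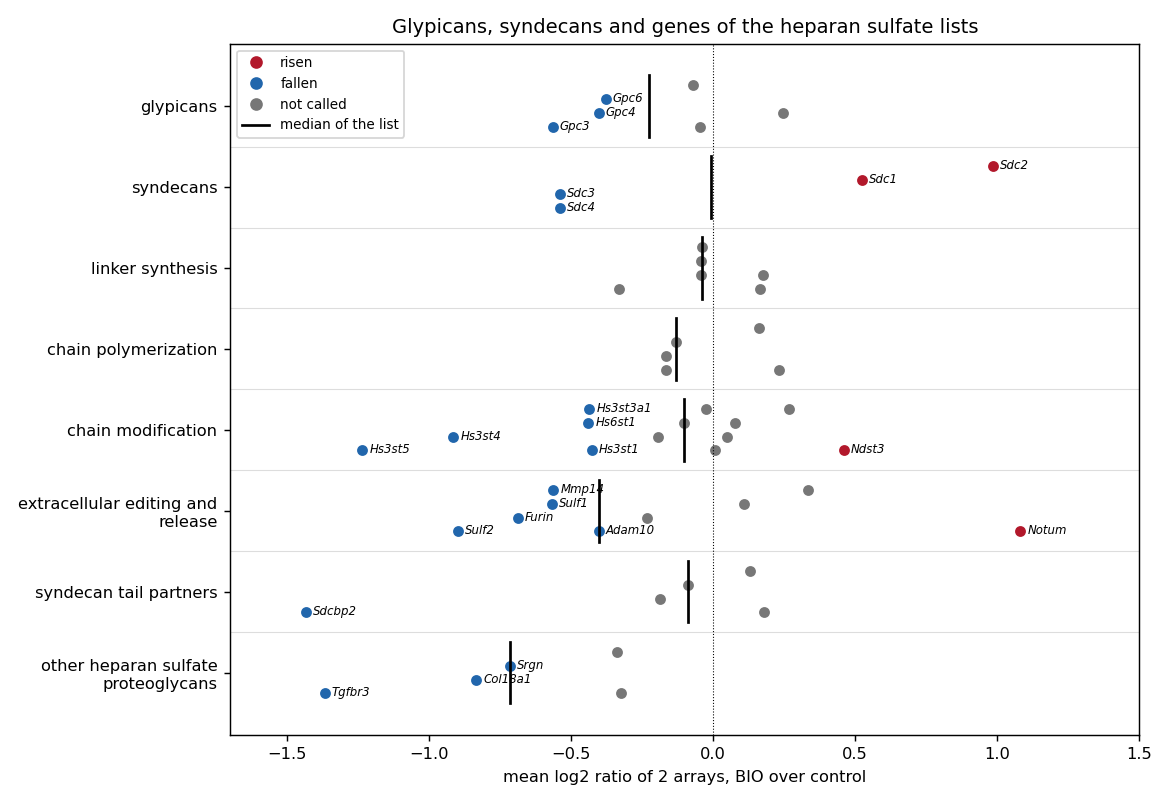
Mean log2 ratio of BIO over control on the 2 arrays (horizontal axis) of each tested glypican and syndecan and of each tested gene of the 6 heparan sulfate lists, 1 point per gene, with red for risen, blue for fallen and gray for not called. Black bars are list medians, and the vertical position within a row only separates the points. Linker and polymerization genes stay gray, and the editing genes are spread from Sulf2 at -0.90 to Notum at 1.08.

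Among 9 genes for editing and release outside the cell, 1 rose, 5 fell and 3 were not called. Notum, an extracellular deacylase that strips the lipid from WNT proteins and binds glypicans, rose from 14337 to 34310 and from 10970 to 21691 (log2 ratio 1.08, adjusted p 0.000572, limma). Both sulfatases that trim heparan sulfate after it has reached the surface fell. Sulf2 went from 16210 to 8649 and from 17801 to 10021 (log2 ratio -0.90, adjusted p 0.000839), and Sulf1 from 25095 to 17738 and from 28598 to 19647 (log2 ratio -0.57, adjusted p 0.00712). Of the 4 proteases on the list that can cleave the core proteins, 3 fell and Adam17 was not called, at -0.13 and 0.34 on the arrays (mean 0.11, adjusted p 0.623). Furin, a convertase that processes glypicans, was at -0.69 (adjusted p 0.00587). Mmp14, which sheds syndecans, was at -0.19 and -0.93 on the arrays (mean -0.56, adjusted p 0.0456). The fifth fall was that of Adam10, another sheddase, at -0.40. The calls of Mmp14 and Adam10 were lost with an offset of 16, with the processed signals and with median centering, that of Mmp14 also with robust eBayes and when dim probes were not filtered, and that of Sulf1 with median centering.

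Of 5 partners of the syndecan tail, 1 fell and 4 were not called. It was Sdcbp2, a syntenin, which went from 299 to 117 and from 354 to 107, with a log2 ratio of -1.43 (adjusted p 0.000150, limma). The other carriers of heparan sulfate gave 3 falls among 5 genes and no rise. Tgfbr3, the TGFB co-receptor betaglycan, fell by 1.37 on the log2 scale (adjusted p 0.000148), Col18a1, a basement membrane collagen with heparan sulfate chains, fell by 0.83 (adjusted p 0.00120), and Srgn, a proteoglycan stored in granules of blood and endothelial cells, fell by 0.72 (adjusted p 0.00777). Over the 16 called genes of the 6 lists, 9 kept their call with median centering, 12 with the processed signals and 2, Sulf2 and Col18a1, with the score table, and 0 turned.

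The WNT feedback gene Axin2 and the targets Sp5 and Lef1 rose by 2.15, 2.80 and 1.07 on the log2 scale, so the response to BIO was seen on these arrays. Between 70.1% and 80.9% of the biological spots of a channel were well above background. Among all genes called, 1970 rose and 3184 fell, whereas the score table gave 1929 risen and 1319 fallen, so the background split between rises and falls turns with that table. The scores in that table have 1 decimal, and ratios from them are tied between genes. With it, Gpc4 and Gpc6 shared a ratio of -0.38 and were called. Gpc3, Sdc3 and Sdc4 shared a larger fall of -0.54 and were not called, nor was Sdc2 at 1.02. What the rounding did to the calls and the split was not tested.

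Markers of the cells in the explant moved with BIO as well. Their counts, here and in the next paragraph, are to be read beside 9.13% risen and 14.8% fallen among all genes tested. Of 11 markers of the ureteric epithelium, 9 fell and 0 rose (median log2 ratio -0.91). The largest falls were those of Foxa1 at -2.17 and Upk3a at -1.98, while Epcam at 0.02 and Cldn4 at -0.12 were not called. All 11 were well above background in control. Their summed processed signal was 87704 and 89160 in control and 43362 and 52381 with BIO. Such sums are led by the brightest probes and are not totals of a cell type. Of 12 markers of the mesenchyme, 9 fell and 0 rose (median -0.58), with the largest falls in Pdgfrb at -2.17 and Osr1 at -0.94. Tbx18 at -0.22, Tcf21 at -0.32 and Ptch1 at 0.08 were not called. The sums were 374750 and 408344 in control and 235002 and 258420 with BIO. All 8 endothelial markers fell (median -2.01), with Kdr at -2.63 and Cdh5 at -2.32, and their sum went from between 28451 and 33844 in control to between 5285 and 10023 with BIO. Of 10 cell cycle genes, 10 rose (median 1.00), among them Top2a at 1.22 and Ccnb1 at 1.18, with sums of 49373 and 55072 in control and 91540 and 103227 with BIO.

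Of 6 macrophage markers 3 fell and 0 rose (median -0.38), and the sum was between 6150 and 7091 in control and between 4232 and 5960 with BIO. Of 6 markers of Schwann cell precursors and neurons, cells that Sdc3 and Gpc2 are known from, 2 fell and 0 rose (median -0.30), with sums between 31368 and 34076 in control and between 23191 and 32040 with BIO. Of 4 erythroid genes 2 fell and 0 rose (median -0.51), with sums between 80344 and 91664 in control and between 48790 and 58394 with BIO. Of 6 kidney mesenchyme markers 1 rose and 0 fell (median -0.02), with sums from 20525 to 20900 in control and from 19959 to 20774 with BIO. In such bulk RNA, fewer cells of a type and less RNA per cell cannot be told apart, and the part of the cell makeup in the changes of the glypican and syndecan genes was not tested.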

How the data were processed

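Per the file headers, the authors read Agilent 2-color arrays with Feature Extraction (10.7.3.1 in the submitters' processing notes). The deposited tables give mean and local background intensities per spot, not normalized, and processed signal intensities, background-subtracted and dye-normalized by the software. A further table by the authors holds a score for each probe on each array, with 1 decimal, whose making is not given in the sources used here. Against the scanner values it tracks the fold of BIO against control, negative where control is higher (Pearson r 0.970 and 0.974 across probes after log2 conversion, slopes 1.10 and 1.11), with a median of 1 on both arrays and an unknown centering. No per-sample column was left unused.

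Intensities were corrected by normexp (offset 50) and loess within each array in limma 3.58.1 (R 4.3.3). Control spots and outlier spots had weight 0 and were left out, and 0 spots were saturated. Outliers made up 3.83% and 3.54% of all spots on the arrays, control spots included. The swapped array was turned, and the 4 spots of a probe were averaged. Probes had to be well above background (a share above 0.5 of spots) in control or in BIO on both arrays. For 28824 probes, lmFit and eBayes gave a two-sided test of the log2 ratios against 0, adjusted by Benjamini-Hochberg at a threshold of 0.05. A dye term would leave no residual degree of freedom. The number of arrays limits the precision (median SE 0.111). A gene was represented by its brightest tested probe.

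The fold-change rule, which the study states for its other arrays, asked for 2-fold the same way and a brighter channel of at least 100 on both arrays, on processed signals with a floor of 15 and centered on each array's median. A bound was set from the control mean of a probe and, per array, the higher of its own BIO signal and the lowest signal well above background. Each array was taken as 1 replicate, since labels number both RNAs and the methods describe pools. The arrays shared 1 slide and scan. Names came from RefSeq GRCm38.p6 (28328 of 39429 probes by accession, 3400 by symbol, 243 by synonym, 7458 kept the file's name), probe coordinates from the files (mm9). The fit was tested on simulated data, where it recovered the large changes but let through more false calls than its threshold states. Those data held a far smaller share of changes than was called here, so this rate cannot be carried over to these arrays.

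The members and lists were chosen with earlier results of these data known. All members with every probe were named, from the heparan sulfate lists called genes with values for at most 4 per list and direction, at most 2 genes per marker list, and Axin2, Sp5 and Lef1 as a check. Hs3st1, Adam10 and the epithelial and mesenchymal markers named as not called were added after their values were seen. Alternatives were the offset, the processed signals, median centering, no filter, outliers kept, robust eBayes, the score table, the mean of a gene's probes, other fold minimums and leaving out each array.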

Additional observations from a re-analysis of the deposited data

How the results depend on the processing

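The members called as risen (2) and fallen (5) became 1 and 2 with median centering in place of loess, and 0 and 2 with the deposited score table. With the processed signals 3 fell. The heparan sulfate list genes called as risen (2) and fallen (14) became 1 and 8 under median centering and 0 and 3 when the score table was used. Over the other alternatives the last count ran from 10 to 14. The median log2 ratio of the members (-0.22) was -0.22 with an offset of 16, -0.24 with median centering, -0.23 with outlier spots kept and from -0.27 to -0.27 with 1 array left out. Gpc1 changed sign with median centering, to 0.11 (limma adjusted p 0.898). Of the fold-change rule, which no member passed, 1 member passed at 1.5-fold, and 0 to 1 passed with 1 array left out. The cause of these shifts was not tested. Over all genes, 1970 rose and 3184 fell, against 827 and 1939 under median centering, 1929 and 1319 in the score table and 1548 and 2492 with the processed signals. With 2 arrays, 1 array alone gives a value with no test. The ratios are themselves paired, BIO with the control of the same array. No further paired analysis was possible because the main test already uses these pairs and another block would leave nothing to test.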

Other observations

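Among the heparan sulfate genes that were not called, those with opposite signs on the arrays include Hs3st6 and Hs2st1, named here after their values were seen. Hs3st6, a sulfotransferase of the same kind as Hs3st5, had processed signals of 614 and 589 in the control channels and of 575 and 1000 in the BIO channels, with log2 ratios of -0.22 and 0.75 (limma adjusted p 0.392). Hs2st1, which sulfates the uronic acid of the chain, had 2598 and 3522 in replicate 1 and 2188 and 1941 in replicate 2, with log2 ratios of 0.39 and -0.24 (adjusted p 0.776). Neither difference exceeded the spread between the arrays.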
